A study of Caenorhabditis elegans with 2 samples.

Results

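The genes described here are the LIM homeobox genes of *Caenorhabditis elegans* other than *lin-11* (*mec-3*, *ceh-14*, *lim-4*, *lim-6*, *lim-7* and *ttx-3*) and *ldb-1*, which encodes the cofactor of the LIM class. They are 7 of 19973 protein-coding genes and were taken by name from the annotation. Regions were assigned to a gene when the summit lay in the gene body or within 5 kb of it, or when the nearest protein-coding transcript start was that gene's. Of the 7 genes, *mec-3* lies on chromosome IV, *lim-7* on chromosome I and the other 5 on X.

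The data are chromatin immunoprecipitation followed by sequencing (ChIP-seq), which recovers DNA bound by a protein, for LIN-11, sampled at a single stage, the L2 larva, from whole animals of both sexes. Both replicates are strain OP62, genotype unc-119(ed3) III; wgIs62, a stable transgenic line that carries LIN-11 with a GFP-FLAG tag at its C terminus. The labels give the Snyder laboratory as the source of replicate 1 and the CGC stock center as that of replicate 2, sonication by microtip for the first and a fragment size range for the second. There is 1 group of 2 biological replicates and no second condition, so no test between conditions was possible. For each replicate and for the pooled reads the authors deposited 30000 candidate regions, which include background, and from these an optimal list of 1917 regions. Each region carries a signal, the authors' own value. Neither the read depth nor a common scale for the lists is stated, so signals were compared only within a list. Where signals of a region in several lists are given together, their sizes are not compared. In whole larvae, binding in few cells and weak binding in many cells cannot be told apart.

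LIM homeodomain proteins join a pair of zinc-binding LIM domains to a homeodomain, the part that contacts DNA, typically at sequences with a TAAT core such as TAATTA. LDB proteins bind the LIM domains and link LIM homeodomain factors to each other and to partner factors, so a single cofactor serves the class. In the worm most of these genes specify neurons: *mec-3* the touch receptor neurons, *ttx-3* the AIY interneuron, *lim-4* the AWB olfactory neuron, *ceh-14* the thermosensory AFD neuron among others and *lim-6* several GABAergic neurons, while *lim-7* is known from the gonadal sheath. *lin-11* acts in vulval and uterine cells and in several neurons.

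The genes differed in what the lists held. *ldb-1* carried the 1 optimal region of the group, in its long intron, and the other 6 genes carried none. The sequences around the optimal summit and the next strongest *ldb-1* candidates are shown because they hold the strongest signals of the 7 genes, and the upstream *ldb-1* candidate because it holds a TAATTA. All are on the plus strand of WBcel235 (ce11), which is also the strand of *ldb-1*, and were read from the RefSeq copy of that assembly. Capitals mark TAATTA in the last line and, in the first and second, GAGAGA and its reverse complement TCTCTC. The first line spans 300 bases around its summit and the others 120 bases.
Optimal intron region, chrX:11031246-11031545: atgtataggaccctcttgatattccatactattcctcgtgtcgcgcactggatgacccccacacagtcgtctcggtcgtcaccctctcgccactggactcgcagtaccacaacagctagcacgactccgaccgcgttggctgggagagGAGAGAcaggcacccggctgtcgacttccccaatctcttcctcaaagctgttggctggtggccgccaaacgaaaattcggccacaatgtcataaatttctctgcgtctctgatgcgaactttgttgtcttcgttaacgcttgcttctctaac
Intron candidate of pooled signal 24.9, chrX:11034850-11034969: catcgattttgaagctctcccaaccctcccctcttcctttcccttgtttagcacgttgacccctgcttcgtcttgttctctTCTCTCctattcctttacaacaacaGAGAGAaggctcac
Intron candidate of pooled signal 21.3, chrX:11035668-11035787: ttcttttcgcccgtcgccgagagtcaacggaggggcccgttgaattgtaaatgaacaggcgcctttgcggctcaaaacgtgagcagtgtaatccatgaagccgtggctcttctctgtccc
Intron candidate of pooled signal 15.5, chrX:11033110-11033229: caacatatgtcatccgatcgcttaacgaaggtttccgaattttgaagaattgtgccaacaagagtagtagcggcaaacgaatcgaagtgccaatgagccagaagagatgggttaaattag
Upstream candidate of pooled signal 11.7, chrX:11025803-11025922: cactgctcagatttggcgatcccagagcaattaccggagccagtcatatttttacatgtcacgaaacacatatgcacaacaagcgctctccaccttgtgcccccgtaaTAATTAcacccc

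The motif TAATTA, searched in the 301 bases centred on each summit, was in none of the intron windows of *ldb-1* and in 1 *ldb-1* window, the upstream one. It was in 2 of the 28 pooled candidates of the 7 genes (7.14%), against 8.95% of all pooled candidates and 9.49% of the optimal regions. GAGAGA, counted on both strands, was in the windows of the 3 strongest *ldb-1* candidates, although in the third it lay outside the 120 bases printed. It was in 6 of the 28 candidates (21.4%), against 22.5% of all pooled candidates and 50.6% of the optimal regions. CACGTG, an E-box, was in 2 of the 28 (7.14%) against 7.99% of all candidates. CAT followed after 4 bases by AAT, on either strand, was in 5 of the 28 (17.9%) against 21.8%, and an inverted pair of TAAT sequences with 3 bases between them was in 0 of the 28 against 0.877%. A match here is a description of the letters and not a binding site. The 301-base window of the optimal region had a GC content of 53.5%, above the upper quartile of the optimal regions (48.2%).

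The gene *ldb-1* (WBGene00002261, chrX:11028917-11040612, plus strand) spans 11696 bp and has 5 protein-coding transcripts. Of these, 3 start within 781 bp of the gene's start and 2 start internally, 8135 and 8137 bp further on. Its optimal region, chrX:11031234-11031557, lay in an intron of 7606 bp. The summit was 2479 bp past the first start and 1698 bp past the nearest protein-coding one. The start of the non-coding gene F58A3.6, in the same intron, was closer, at 256 bp. The pooled signal was 36.8, rank 1322 of 30000, and the authors' −log10 q-value was 3.54. The signals of the optimal list began at 27.8 and had a median of 46.0, and 1321 of its 1917 regions had a higher signal than the *ldb-1* region. An optimal region in the body or within 5 kb was found for 23.3% of all protein-coding genes, for 27.9% of those on X and for 33.8% of those with a body of 10 kb or more. The count of 1 in 7 was not above those shares. Inside the gene body itself, an optimal summit was found for 2.25% of all protein-coding genes and for 12.7% of those of 10 kb or more, and again for 1 of the 7. By nearest protein-coding transcript start *ldb-1* was again the 1 member with an optimal region, and 8.61% of all protein-coding genes had one. By the gene body and by the nearest start, 1 in 7 was above the shares given. With a single gene counted, neither direction can be read as a result about the 7 genes.

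The replicates placed this site differently. In replicate 2 a region with its summit 18 bp from the optimal summit had a signal of 32.1 and rank 784. In replicate 1 no summit lay within 100 bp, which was also so for 6.89% of the optimal regions. A summit within 100 bp in both replicates was found for 91.4% of the optimal list, and not for this region. Replicate 1 instead had a summit on either side, one 250 bp before it with a signal of 10.6 (rank 2839) and one 196 bp after it with a signal of 17.5 (rank 1095). The second of these matched a separate pooled candidate, chrX:11031434-11031757, of signal 10.8. Each replicate therefore had its strongest *ldb-1* region in this intron, with summits 214 bp apart. Of the genes with candidates from both replicates, 37.1% had their strongest summits within 300 bp of each other, a distance chosen after the values were seen. The optimal region did not count among the strongest regions of both replicates at a match distance of 100 bp, and did at 200 bp. Of all optimal regions, 57.5% counted at 100 bp.

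The intron held 7 further pooled candidates, so that 8 of the 11 candidates of *ldb-1* lay in it. Of introns of 5 kb or more in protein-coding genes, 13.0% had an optimal summit and 5.57% had 8 or more pooled candidates, with a median of 2. That intron length was chosen after the values were seen. The strongest of the 7, chrX:11034748-11035071, ranked 2238 with a pooled signal of 24.9, and its signals were 6.09 in replicate 1 and 18.4 in replicate 2. The next, chrX:11035566-11035889, ranked 2786 at 21.3, with signals of 2.93 in replicate 1 and 18.3 in replicate 2. The nearest *ldb-1* start to both was an internal one, and their summits lay 2142 and 1324 bp upstream of it. In replicate 2 both ranked among its 1917 strongest regions, at 1793 and 1800, and in replicate 1 they ranked 9411 and 28584. By rank, the intron region chrX:11033008-11033331 stood the other way round. Its pooled signal was 15.5 and its replicate 1 signal 13.0 at rank 1877. The nearest replicate 2 summit was 106 bp away with a signal of 5.41 at rank 13271.

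Among the 8 intron candidates of *ldb-1*, 1 lay at a transcript start. Its region, chrX:11036861-11037184, had its summit 29 bp upstream of the internal start from which the short transcripts run, a pooled signal of 12.3 (rank 7239) and signals of 3.34 in replicate 1 and 10.2 in replicate 2. Of the 28 pooled candidates of the 7 genes, this region was the only 1 within 1000 bp of an annotated start of its gene. Others lay within that distance of a neighbouring gene's start, those of *mksr-1*, F46C8.3 and *dpy-7*. The share over all pooled candidates was not counted, so whether the count is low is not known. The candidate upstream of the gene, chrX:11025701-11026024, was 3054 bp before the first start and reached 11.7 in the pooled list, 2.81 in replicate 1 and 6.68 in replicate 2. Coding exons held the remaining 2 *ldb-1* candidates, of pooled signals 10.8 and 6.99, the first with a summit in replicate 2 (4.47) and the second with none within 100 bp in either replicate. In all, 4 of the 11 *ldb-1* candidates had a summit within 100 bp in both replicates.

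**Figure D1:**
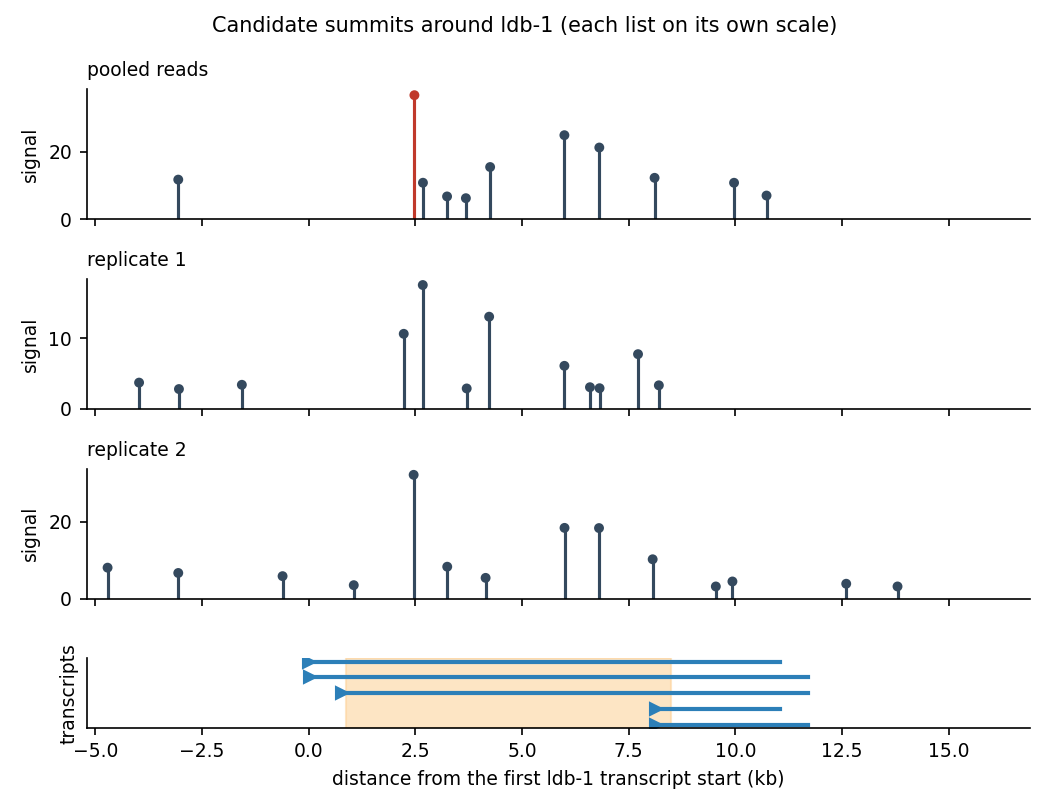
Candidate summits within 5 kb of *ldb-1*, by distance from its first transcript start (kb) and the authors' signal, for the pooled reads and each replicate on separate scales; lines below are the 5 transcripts with arrowheads at their starts, and the shaded span is the intron of 7606 bp. The red summit is the optimal region, which replicate 2 places at the same point and replicate 1 flanks with a pair of summits.

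*ldb-1* had more candidates than the other members, in a longer window. Its 11 pooled candidates in 21.7 kb amounted to 5.07 per 10 kb, against 2.99 per 10 kb of the genome and 3.05 of X. The other 6 genes had 17 candidates in 93.3 kb, which is 1.82 per 10 kb. Of all protein-coding genes 5.35% had 10 or more pooled candidates in the body or within 5 kb, and of those with a body of 10 kb or more 40.9% had. Gene length moves with this count, which had a median of 3 over all protein-coding genes and 8 over those of 10 kb or more, and 3.65% of protein-coding genes are at least as long as *ldb-1*.

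The 6 other genes had weak candidates only. Their strongest pooled signals ran from 7.26 to 12.9, below the 27.8 at which the optimal list begins. The median of the strongest candidate over all protein-coding genes with one was 13.8, so each of the 6 lay below that median, and 5 of their 17 candidates exceeded the median of all pooled candidates, 8.51. Having a candidate at all set no gene apart, since 91.0% of protein-coding genes had a pooled candidate in the window and all 7 members did. Of their 17 candidates, 2 had a summit within 100 bp in both replicates. Over the 7 genes it was 6 of 28, or 21.4%, against 25.0% of all pooled candidates, which include the optimal regions. The 95% Wilson interval, 10.2 to 39.5%, covers the counting of regions only. It takes the regions as independent, although 11 of the 28 lay at *ldb-1*. Replicate 1 matched 15 of the 28 and replicate 2 matched 14, against 52.7% and 56.5% of all pooled candidates.

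**Figure D2:**
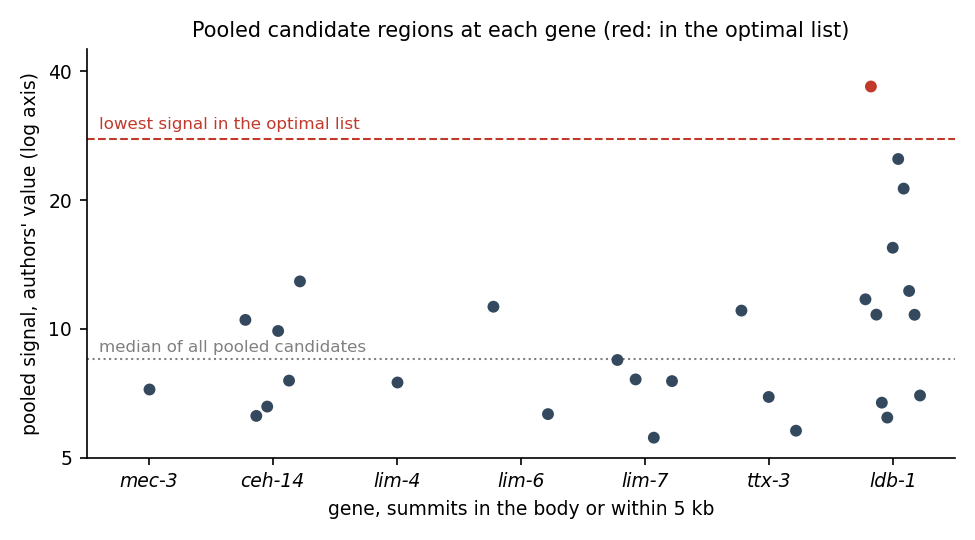
Pooled signal (log axis) of every candidate with a summit in the body of each gene or within 5 kb; each point is 1 region, ordered along the chromosome within a gene. The 1 red point, at *ldb-1*, is above the lowest signal of the optimal list (dashed line), and all points of the other 6 genes lie between 5.57 and 12.9.

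*ceh-14* (WBGene00000438, chrX:7527769-7532732, minus strand) had 6 pooled candidates, of which 5 were nearest to the start of another gene. The strongest, of signal 12.9, was in a coding exon of *dpy-7*, a cuticle collagen gene, and had signals of 6.93 in replicate 1 and 3.27 in replicate 2. The second, of signal 10.5, lay 1713 bp upstream of F46C8.3, with 9.16 in replicate 2 and no summit within 100 bp in replicate 1. One candidate had the *ceh-14* start as the nearest, chrX:7534535-7534858, with its summit 1965 bp upstream, a pooled signal of 9.89 and 5.03 in replicate 2. In the gene body there was 1 candidate, in the 3′ UTR, of signal 6.59. The replicates differed in number here, with 1 candidate in replicate 1 and 7 in replicate 2.

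*ttx-3* (WBGene00006654, chrX:11764456-11769378, minus strand) had 3 pooled candidates. The strongest, of signal 11.0 with 8.36 in replicate 1 and no match in replicate 2, lay in an intron of *lact-7*, the gene that overlaps the end of *ttx-3*. A candidate in a *ttx-3* coding exon had a signal of 6.94, with 5.37 in replicate 1. A candidate 2249 bp upstream of the first start had a signal of 5.79, with 4.18 in replicate 2. None of the 3 was matched in both replicates. In replicate 1 alone a summit of signal 4.84 lay 57 bp past the internal start. By nearest start *ttx-3* gained 1 replicate 2 region beyond the window, 6029 bp upstream, of signal 4.03.

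*mec-3* (WBGene00003167, chrIV:10458816-10461867, minus strand) had 1 pooled candidate, chrIV:10459887-10460210, in a coding exon, with a signal of 7.26. Replicate 1 had a summit there of signal 7.22 (rank 6578), and replicate 2 had no candidate anywhere in the *mec-3* window. By contrast, 93.2% of protein-coding genes had a replicate 2 candidate in theirs, and 91.7% a replicate 1 candidate. Replicate 1 had 4 at *mec-3*, 1 of them 217 bp upstream of the start with a signal of 4.22, near the median of its list (4.72).

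*lim-4* (WBGene00002987, chrX:3869404-3873545, minus strand) had 1 pooled candidate, 3421 bp beyond the gene's end, of signal 7.51, with 3.14 in replicate 1 and 5.05 in replicate 2. Replicate 2 alone had a summit 78 bp past a *lim-4* start, of signal 5.68, against a median of 5.02 in its list. *lim-6* (WBGene00002988, chrX:1072452-1079452, plus strand) had 2 pooled candidates and none in its body. The stronger, of signal 11.3 and 6.58 in replicate 2, had its summit 52 bp upstream of *mksr-1*, a ciliary transition zone gene, and the other, of signal 6.33, was nearest the start of *pfn-3*, a profilin gene. No pooled candidate had a *lim-6* start as its nearest.

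*lim-7* (WBGene00002989, chrI:5716574-5725809, plus strand) had 4 pooled candidates, all in its body, of which 2 were in introns and 2 in coding exons. For 3 of them the *lim-7* start was the nearest, and for the intron candidate of signal 7.55 it was that of C04F1.1. The strongest, chrI:5718417-5718740, lay in an intron 2005 bp past the start, with a pooled signal of 8.46 and 4.01 in replicate 1. The other 3 had signals of 7.62, 7.55 and 5.57. None had a summit within 100 bp in replicate 2, and 2 of the 4 had one in replicate 1. For the candidate of signal 5.57 the nearest replicate 2 summit was just beyond that limit, 102 bp away, with a signal of 4.32.

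**Figure D3:**
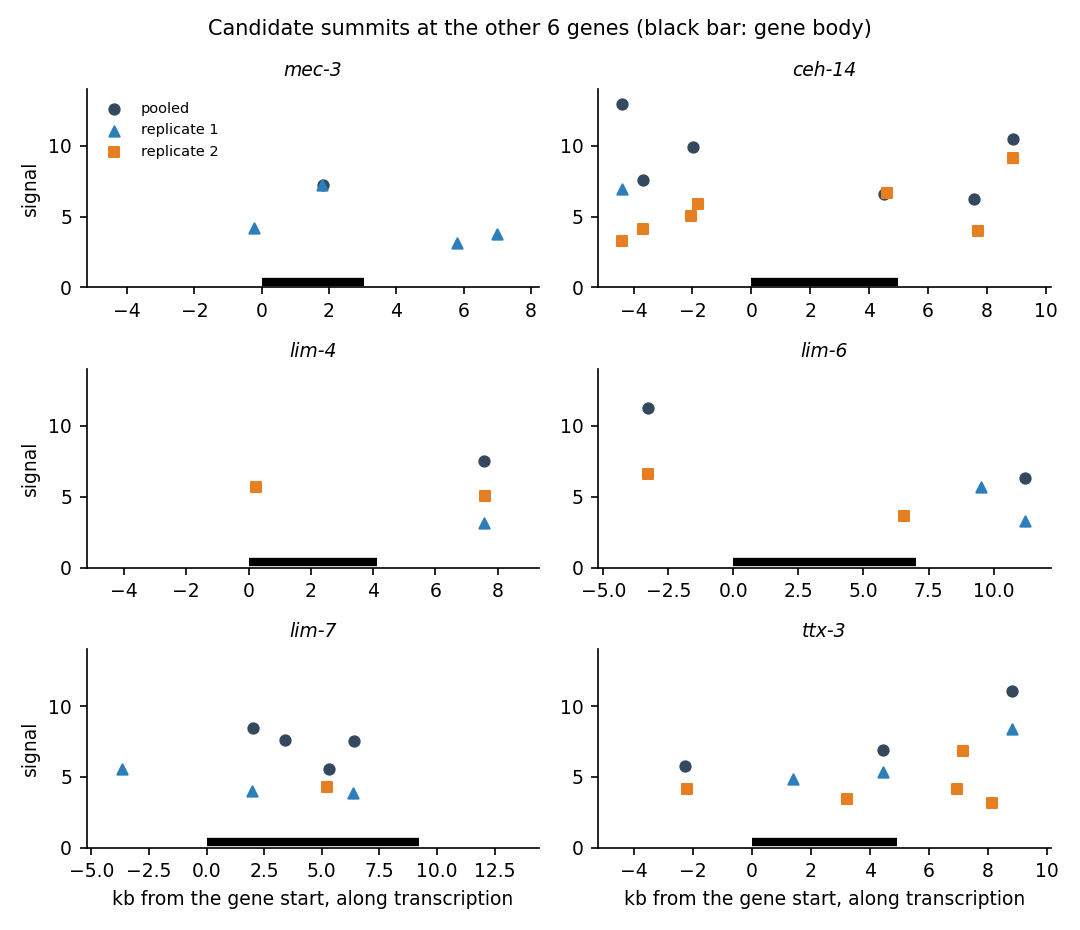
Candidate summits at the 6 genes without an optimal region, by distance from the gene start along transcription (kb) and the authors' signal (pooled circles, replicate 1 triangles, replicate 2 squares); black bars are gene bodies, and signals of different lists have no stated common scale. Most summits of the replicates lie apart from each other, and *mec-3* has no replicate 2 summit.

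The strongest regions of the replicates could be compared at 5 of these 6 genes. Their summits were 1642 bp apart at *ttx-3*, 7338 at *lim-4*, 8887 at *lim-7*, 12788 at *lim-6* and 13267 at *ceh-14*, and *mec-3* had none in replicate 2. Over all genes with candidates from both replicates, 37.1% had strongest summits within 300 bp of each other. How often the distance is as large as at these genes was not counted. At *lin-11* itself the strongest summits of the replicates were 9 bp apart. Its window held 5 optimal regions and 13 pooled candidates, the strongest of signal 153, against 12.9 at most at these 6 genes. Reads from the native *lin-11* and the introduced copy cannot be told apart there.

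**Figure D4:**
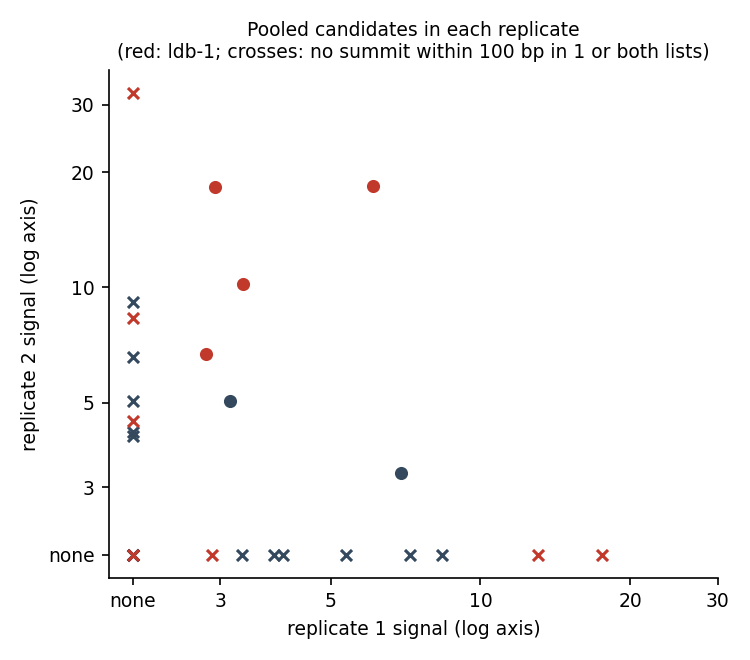
Signal in replicate 1 and replicate 2 (log axes) of the 28 pooled candidates, with "none" where no summit lay within 100 bp; circles are matched in both lists, crosses are not, and red marks *ldb-1*. Of the 28, 6 are matched in both lists, 9 have a replicate 1 match alone, 8 a replicate 2 match alone, and 5 have no match and share 1 point at the corner. The signals of the replicates have no stated common scale.

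The windows ended 5 kb from the gene bodies. The summits closest to that limit on the inside were candidates of signal 12.9 at 4407 bp from *ceh-14* and 6.33 at 4214 bp from *lim-6*. On the outside, the closest was a candidate of signal 8.31 at 5443 bp from *ceh-14*. At *ttx-3* the closest outside was an optimal region of signal 45.8 at 6513 bp, which lay upstream of *lact-7*. Further out, optimal regions lay 8.26 kb from *lim-6* (signal 30.4, nearest the start of *unc-1*) and 9.56 kb from *lim-7* (signal 72.7, nearest that of *pamn-1*). None of these had a member's start as its nearest. The closest optimal region was 12.3 kb away for *ceh-14*, 20.1 kb for *mec-3*, where it lay 113 bp upstream of *egl-21*, and 72.3 kb for *lim-4*.

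**Figure D5:**
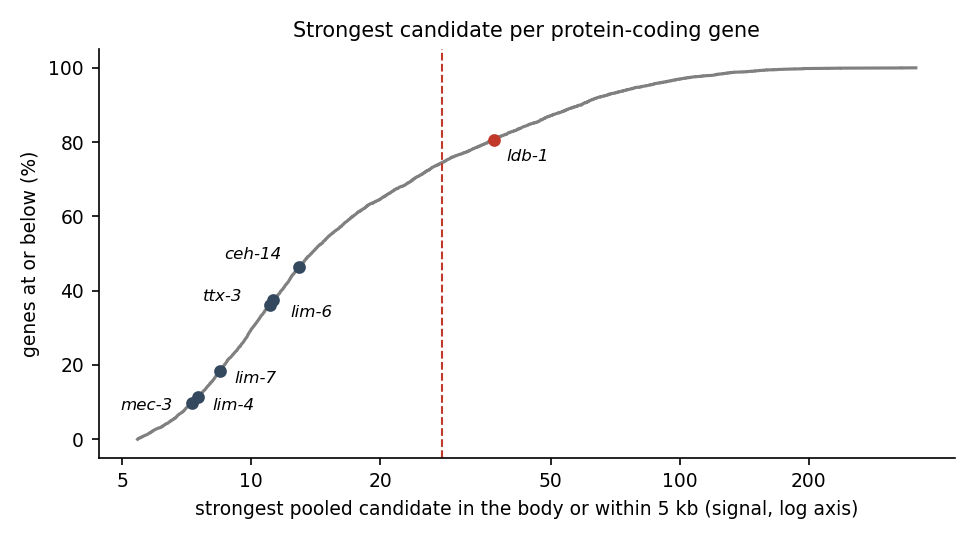
Cumulative share of protein-coding genes (%) by the signal of their strongest pooled candidate in the body or within 5 kb (log axis, genes with a candidate), with the 7 genes marked; the dashed line is the lowest signal of the optimal list. *ldb-1* lies to the right of the line, and the other 6 lie in the lower part of the curve, below 13.8.

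Related genes were counted in the same window. Among LIM domain genes without a homeodomain, 1 of 11 had an optimal summit, *unc-115*, which encodes an actin-binding protein of the abLIM family, with a signal of 61.5 at 109 bp upstream of its start. Among transcription factor genes that act beside LIM homeobox genes in neurons, 1 of 14 had one, the proneural gene *lin-32*, with a signal of 59.2 at 2907 bp past its start. *unc-86*, whose product acts with MEC-3, and *ceh-10*, whose product acts with TTX-3, had candidates of 10.6 and 16.9 at most, and both were named after their values were seen. Among touch receptor genes that depend on *mec-3*, 2 of 8 had one, but neither summit was nearest to the touch gene. The one at *mec-17*, a tubulin acetyltransferase gene (29.9), lay 257 bp upstream of an *arf-5* start. The one at *mec-4*, a mechanosensory channel gene (28.5), lay in an intron of *aak-2*, 382 bp upstream of an *aak-2* transcript start. The share of all protein-coding genes was 23.3%, and the medians of the strongest candidate were 11.2, 13.5 and 15.0 in the 3 lists against 13.8 over all genes.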

How the data were processed

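Lists of regions from ChIP-seq of LIN-11 in 2 replicates were used. The notes deposited with the samples trace the lists of both replicates and of their pooled alignments to a control alignment, as input to the irreproducible discovery rate (IDR) procedure, and the optimal list to those 3 lists. Which caller and aligner were used, and at what IDR threshold, is not given in the sources used here. The deposited files give the authors' signal per region and the authors' −log10 q-value, and the ce11 lists were used. The ce10 lists were not used, since the annotation is on ce11.

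Summits were the region start plus the deposited offset, with coordinates counted from 1. Genes came from Ensembl release 115 (WBcel235). Summits matched at 100 bp or less. Strongest regions of a replicate were the 1917 of highest signal. Ties in the nearest start went to the first gene ID. Motifs were searched on both strands within 150 bases of the summit. Backgrounds are shares over all protein-coding genes, regions or long introns. No test was run. Counting was tested on simulated summits. Named genes were the members, *lin-11*, genes of the nearest starts, and bound genes of the related lists. Members, lists and motifs were chosen with earlier results of these data known. Alternatives changed the window, match, optimal list, gene assignment and replicate. Python 3.11.15, pandas 2.3.3 and numpy 2.4.6 were used.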

Additional observations from a re-analysis of the deposited data

How the results depend on the processing

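The number of members with an optimal region was 1 with a window of 2 kb, in the gene body alone and by overlap in place of summit position. It was 4 with a window of 10 kb, which held 4 optimal regions. Those added, at *lim-6*, *lim-7* and *ttx-3*, had the start of another gene as their nearest. The share of all protein-coding genes at 10 kb was not counted, so the 4 has no background beside it. The number of members was 0 among the optimal regions above the list's median signal. It was also 0 among optimal regions matched in the strongest regions of both replicates. The count of regions and the count by nearest start were 0 in both settings. With a replicate left out, the strongest regions of the other one stood in for the optimal list: *ldb-1* was again the 1 member counted, with 2 regions in replicate 1 and 3 in replicate 2. By nearest start the count stayed at 1 there and by nearest gene body, and was 0 when starts of any biotype counted, since the start of the non-coding gene F58A3.6 was closer, at 256 bp. The 28 pooled candidates became 18 with a window of 2 kb, 17 in the gene body and 41 with a window of 10 kb, and 26 to 31 were found in the lists of single replicates. Those matched in both replicates, 6, became 3 in each of the smaller windows, 9 with the window of 10 kb, 5 with a match at 50 bp, 8 at 200 bp and 9 by overlap. The optimal *ldb-1* region counted among the strongest of both replicates, 1 against 0, at 200 bp and by overlap. The windows admit more or fewer regions by construction, and the cause of the other shifts was not tested. No paired analysis was possible because there is 1 group. Read depth is unknown, so a missing candidate does not show that a site is unbound.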
